A study of Mus musculus with 416 samples.

Results

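Single blastomeres of 4-cell mouse embryos were compared after injection of an siRNA against Rif1 or of a control siRNA. The comparison took every cell with a column in the tables of this stage, which gave 49 siCont and 51 siRif1 cells, or 100 of the 299 cells of the series. The labels list 64 and 72 cells for these groups and 416 for the series, and cells without a column were not analysed here. Embryos of both groups had the genotype (C57BL/6J xCBA) x DBA/2J. Each zygote received 20 µM of siControl or siRif1 at 17 to 18 h after hCG, the hormone given to induce ovulation, and was cultured in KSOM medium to the 4-cell stage. Blastomeres were collected over S phase, and the genome of each was amplified with its own barcode. Cells of the 8-cell and morula stages were used for reference. The 6 siCont cells numbered 1 to 8 in the labels stood apart, and the main results are also given without them. The knockdown of Rif1 itself cannot be read from these tables, since genomic DNA was measured. No embryo, litter or batch is named in the labels, so sister blastomeres cannot be recognised, each group counts as 1 sample, and no test between the groups was possible.

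Eukaryotic chromosomes are copied in a regulated order, in which large domains replicate early or late in S phase. Gene-rich, open chromatin usually replicates early and gene-poor, compact chromatin late. Rif1 is a chromatin protein that recruits protein phosphatase 1, which opposes the Dbf4-dependent kinase Cdc7 in activating the replicative helicase, and its loss is known to disturb replication timing in cultured cells. In the early mouse embryo the order of replication is less sharply defined than in later cells.

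For each cell the tables gave a state of 0, 1 or NA in each of 49264 autosomal bins of 50 kb. The state 1 was read as replicated, because its share was higher in gene-dense bins. Of 5 equal classes of bins by gene density, the densest was in state 1 in 54.02% of siCont and 54.27% of siRif1 cells on average. In the gene-poorest class these values were 36.8 and 41.2%. Between 90.5 and 94.1% of the bins were measured in a siCont cell, and between 89.2 and 94.0% in a siRif1 cell. Read depth per cell is unknown here. In both groups the shortest run of 1 state away from a chromosome end was 5 bins, so finer structure cannot be read. Bins measured in at least 10 cells of both groups were used, which kept 46266 bins (93.9%).

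The cells of both groups spanned S phase, and siRif1 cells were more often near its middle. The percent of measured bins in the replicated state served as the S phase position of a cell. It ran from 5.8 to 98.3% with a median of 42.8% in siCont cells, and from 6.9 to 95.1% with a median of 51.1% in siRif1 cells. Between 40 and 60% lay 11 of 49 controls (22.4%, exact 95% interval 11.8 to 36.6%), against 24 of 51 knockdown cells (47.1%, interval 32.9 to 61.5%). Below 20% lay 7 siCont and 3 siRif1 cells, and above 80% lay 4 and 1. These Clopper-Pearson bounds allow for counting error and for nothing else, and those of the groups overlapped. Embryos were collected at several times, so collection and progress through S phase cannot be told apart. Because of this difference, results are also given below for cells between 20 and 80% replicated, for cells weighted equally over S phase, and for 34 pairs of cells matched in position. In the weighting each of 4 brackets of S phase counts the same. The few siRif1 cells near the ends of S phase therefore weigh more than the others, and weighted values rest heavily on them.

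**Figure D1:**
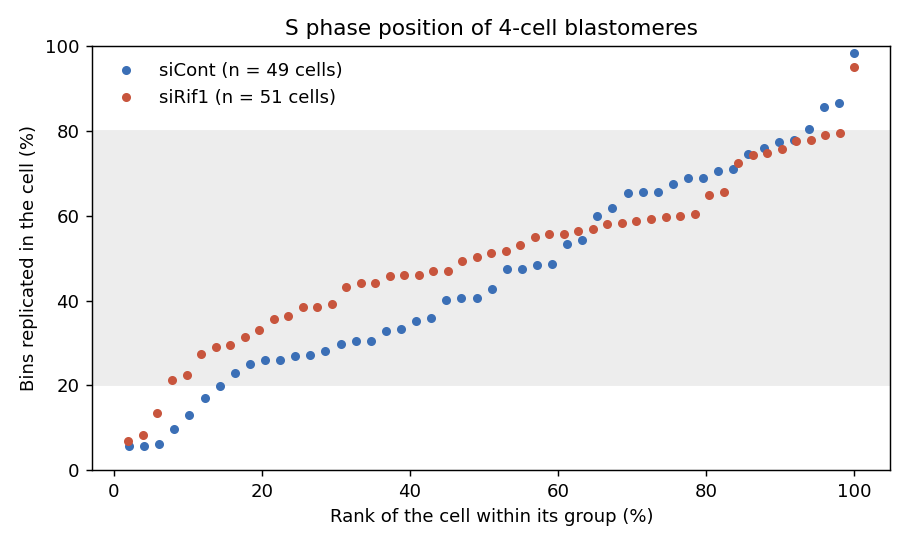
Percent of measured bins replicated in each 4-cell blastomere (vertical axis), with cells ranked within their group (horizontal axis, percent of cells); each point is a cell and the grey band marks 20 to 80%. The siRif1 points bunch between 40 and 60%, where 24 of 51 cells lie against 11 of 49 siCont cells.

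The order of replication within a cell was followed through regions that were early or late at other stages. Bins were ranked by the control cells of the 8-cell and morula stages, which the 4-cell comparison does not use, and were cut into 5 equal classes. In cells between 20 and 80% replicated, the earliest class was replicated at a median of 77.1% of its bins in the 38 siCont cells. The latest class was replicated at a median of 34.95% in the same cells. The difference between these classes within a cell had a median of 33.9 points in siCont, with a range of -20.8 to 93.6 points. In the 47 siRif1 cells it had a median of 26.1 points, with a range of -26.9 to 90.5 points. The ranges of the groups overlapped almost wholly.

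The labels number the cells of each group, and the low numbers stood apart. In all 6 siCont cells numbered 1 to 8 the earliest class was less replicated than the latest, by -20.8 to -4.74 points. Of the 6 siRif1 cells with these numbers the same held for 3. The labels name no batch, these cells were singled out after the data were seen, and the part of the numbering in any result was not tested. In the order of the sample list, siRif1 cells run on past number 8 without a break, while siCont cells do not. Leaving out these numbers in both groups is therefore not a matched exclusion, and place in the list and treatment cannot be fully told apart. Without the cells numbered 1 to 8, the median difference between the earliest and the latest class was 41.1 points in 33 controls and 30.7 points in 42 knockdown cells.

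In some cells of both groups the usual order was turned, with the earliest class less replicated than the latest. Between 20 and 80% replicated this was so in 6 of 38 controls (15.8%, interval 6.02 to 31.3%), against 7 of 47 knockdown cells (14.9%, interval 6.20 to 28.3%). Of the 6 controls, 5 were among those numbered 1 to 8. Without these numbers the order was turned in 1 of 33 controls (3.03%, interval 0.0767 to 15.8%), against 4 of 42 knockdown cells (9.52%, interval 2.66 to 22.6%). At the 8-cell stage it was so in 2 of 54 controls against 10 of 47 knockdown cells, and in the morula in 0 of 42 against 1 of 43. The 4-cell shares of the groups had overlapping intervals, and the difference from the later stages was not tested. A difference of 50 points or more was found in 13 of 38 siCont cells (34.2%) and 13 of 47 siRif1 cells (27.7%). None of the cells numbered 1 to 8 was among these.

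The difference was also read along S phase. Between 40 and 60% replicated, the median difference between the earliest and the latest class was 57.1 points in 11 controls and 28.4 points in 24 siRif1 cells. Between 20 and 40% it was 23.6 points in 14 controls and 49.8 points in 12 siRif1 cells. Without the cells numbered 1 to 8 the median of this bracket was 51.5 points in 10 controls and 49.8 points in the same 12 siRif1 cells, so the lower value of the controls rested on those numbers. In the middle bracket the medians were then 59.2 points in 10 controls and 30.7 points in 20 siRif1 cells. Between 60 and 80% it was 18.6 points in 13 controls and 14.6 points in 11 siRif1 cells. Within the middle bracket the siCont cells ran from -4.74 to 93.6 points and the siRif1 cells from -26.9 to 90.5 points, so that the ranges overlapped over most of their length. These brackets were chosen after the data were seen and hold few cells each.

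**Figure D2:**
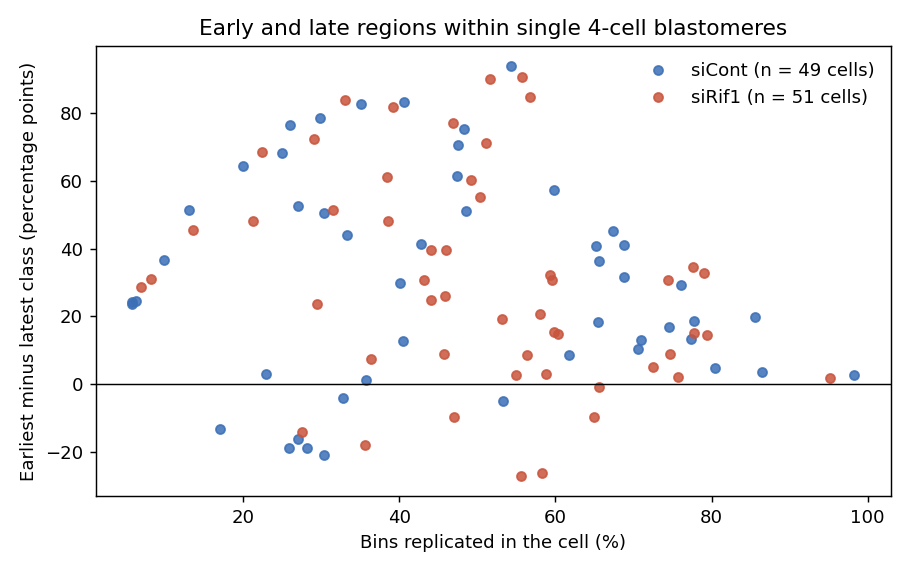
Percent of the earliest class of bins that was replicated minus that of the latest class (vertical axis, percentage points) against the percent of all measured bins replicated (horizontal axis); each point is a 4-cell blastomere. Points below 0 are cells in which late regions were ahead, and both groups contain them: 6 of 38 siCont and 7 of 47 siRif1 cells between 20 and 80%.

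A second measure compared each cell with a strict order, in which the bins replicate one after another as ranked in the reference. The median cell held the expected state in 66.2% of its bins in siCont (range 47.96 to 84.8%) and in 62.2% in siRif1 (range 40.96 to 84.9%). Part of such agreement arises in a cell of that position with no order. After that part was subtracted, the median excess was 9.88 points for siCont and 6.93 points for siRif1, with quartiles of 2.61 and 16.5 points and of 1.58 and 16.1 points. With the mean profile of the other cells of the same group as the reference, the excess was 9.15 and 7.16 points. The medians differed by less than the interquartile range of either group, which describes the spread of cells and not the error of a median. Without the cells numbered 1 to 8 the medians were 11.2 points for siCont and 7.46 points for siRif1. The largest possible excess depends on S phase position, in which the groups differ. With all cells the medians were 5.69 and 14.4 points between 20 and 40% replicated. They were 17.2 and 7.73 points between 40 and 60%, and 4.76 and 2.75 points between 60 and 80%. Without the cells numbered 1 to 8 the lowest bracket had 13.96 and 14.4 points. At the 8-cell stage the excess was 17.0 points in controls and 8.88 points in knockdown cells, and in the morula 19.3 and 13.4 points, each with a reference from the controls of the other 2 stages.

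Over all cells, pairs from the same group and S phase position had low median correlations in either treatment. Pairs of cells within 5 points of each other were compared by the correlation of their states. The median r was 0.0553 over 108 siCont pairs, with a range of -0.12 to 0.527. It was 0.0611 over 185 siRif1 pairs, with a range of -0.19 to 0.557. Correlations below 0 were found in 28.7% of siCont pairs and 14.1% of siRif1 pairs, shares that were not computed without the cells numbered 1 to 8. Pairs share cells and are not replicates, so these values describe the groups. For comparison, the 8-cell medians were 0.139 for controls and 0.0657 for siRif1, and the morula medians 0.265 and 0.121. The 4-cell interquartile ranges were -0.0166 to 0.129 in siCont and 0.0211 to 0.120 in siRif1. Without the cells numbered 1 to 8 the 4-cell medians were 0.0938 over 75 pairs of controls and 0.0618 over 142 pairs of knockdown cells. Between 20 and 40% replicated they were then 0.209 over 23 pairs of controls and 0.0416 over 24 pairs of knockdown cells. Between 40 and 60% they were 0.185 over 14 and 0.0734 over 84 pairs. Between 60 and 80% they were 0.0791 over 34 and 0.0574 over 23 pairs. With all cells the lowest of these brackets had 0.00412 over 54 pairs of controls. The differences between the groups were not tested.

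Averaged over bins, the variation of a bin between cells was close in the groups. It was scored as 4p(1-p), where p is the fraction of cells replicated, so that 1 is the most variable. The mean over bins was 0.905 (SD over bins 0.119) in siCont and 0.912 (SD 0.114) in siRif1 cells between 20 and 80% replicated. In the latest class of bins it was 0.846 and 0.892, and in the earliest class 0.858 and 0.841. The score and the counts of nearly fixed bins below follow from p alone, without centring. They therefore also move with the S phase position of the cells used. Those positions had a mean of 48.5% in siCont and 51.8% in siRif1, and this part was not separated. With matched pairs of cells the latest class had 0.855 and 0.881. Few bins were nearly fixed. In siCont 403 bins were replicated in at least 80% of these cells and 1250 in at most 20%, against 920 and 882 in siRif1. The order of the early counts depended on the cells used: it was 1234 in siCont and 861 in siRif1 with cells between 30 and 70%, and 498 and 404 with matched pairs. In the earliest class the mean score was then 0.803 and 0.854, and 0.856 and 0.872, so its order turned as well. Of these bins, 114 were early and 579 late in both groups. Along the chromosomes, states switched at a median of 21.9 places per 1000 bins in siCont and 23.3 in siRif1, with ranges of 12.2 to 31.2 and 11.9 to 31.3. Runs of 1 state had a median length of 25 bins in both groups.

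Whole chromosomes that ran ahead of or behind the rest of their cell were seen in both groups. Among cells between 20 and 80% replicated, a departure of 40 points or more was counted in 5 of 722 pairs of cell and autosome in siCont. These lay in 4 cells. One cell had replicated 12.3% of chromosome 13 and 73.9% elsewhere. Another had replicated 100% of chromosomes 9 and 18 and 45.7% outside chromosome 9. The others had departures of -50.9 points on chromosome 3 and -42.4 points on chromosome 10. In siRif1 the count was 2 of 892, with -44.2 points on chromosome 18 in one cell and -43.6 points on chromosome 4 in another. Loss or gain of a chromosome and a different time of replication cannot be told apart in these states. Chromosome 18 had no state in 1 siCont cell, and chromosomes 17 and 11 in 1 siRif1 cell each.

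The mean profiles of the groups were compared next. The replicated share of a bin is the percent of measured cells in which it was replicated. Its mean was 46.4% in siCont and 50.3% in siRif1, and the shares correlated across bins at r = 0.795 and rho = 0.781, which is a description since neighbouring bins are not independent. From bin to bin the share had an SD of 13.8 points in siCont against 14.2 in siRif1. Without the cells numbered 1 to 8 these were 15.96 and 15.3 points. The corresponding SDs were 19.9 and 14.8 points in the 8-cell stage and 25.8 and 17.3 points in the morula. Over 10 classes from latest to earliest, the share ran from 30.3 to 67.7% in siCont and from 33.3 to 69.7% in siRif1.

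To remove the difference in mean share, the mean over all used bins was first subtracted within each group. The groups still differed in how their cells spread over S phase. Subtracting the siCont value of a bin from its siRif1 value then gives what is called its shift, in percentage points. A negative shift is called later in siRif1 here and a positive shift earlier. The mean shift was -0.676 points in the latest of 5 classes (SD over autosomes 2.90) and -1.38 points in the earliest (SD 3.18). Their difference was 0.708 points with an SD over autosomes of 3.27, and it was above 0 on 11 of 19 autosomes. With cells weighted equally over S phase it turned to -2.61 points. It was 7.17 points without the siCont cells numbered 1 to 8, and 2.57 points without the cells of these numbers in both groups. Chromosome 11 had the widest difference, 10.4 points. It also had the highest median lead of the autosomes over the rest of the cell in siCont, 8.78 points. In the other stages the same quantity was 20.8 points each, for the 8-cell stage and for the morula, with classes from the controls of the remaining stages.

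Bins with large shifts were few. Later by 20 points or more were 578 of 46266 bins (1.25%), and earlier by as much were 625 (1.35%). Without the siCont cells numbered 1 to 8 the later share was 2.38%. At 30 points the counts were 22 (0.0476%) and 9 (0.0195%). Over bins, shifts had an SD of 8.99 points. Binomial counting error of 49 and 51 cells, each given the same chance within its group, has an SD of 9.59 points for such a difference. The cells ran from 5.8 to 98.3% replicated in siCont and from 6.9 to 95.1% in siRif1. That SD therefore counts their spread over S phase as error and is too large, by an amount not computed. The shifts named below are the extremes over bins and windows, and whether any exceeds counting error was not tested. Large shifts lay in runs, as states do. The 178 later runs had a median length of 2 bins, and the longest, of 23 bins, covered chromosome 15 from 88500001 to 89650000. The longest of 193 earlier runs had 29 bins, on chromosome 13 from 112500001 to 113950000 (GRCm38).

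Chromosome 13 stood highest among the autosomes. Its mean shift was 6.78 points, with shares of 42.3% in siCont against 53.01% in siRif1, and it held 137 of the 625 bins that were earlier by 20 points or more. Within single cells, chromosome 13 was replicated less than the rest of the cell in siCont, by a median of -3.16 points (range -61.7 to 17.6), and more than the rest in siRif1, by a median of 3.13 points (range -27.1 to 24.7). It was ahead of the rest in 13 of 49 controls (26.5%, interval 14.9 to 41.1%), against 34 of 51 knockdown cells (66.7%, interval 52.1 to 79.2%). Chromosome 13 was picked as the highest of the autosomes in these same cells, so these counts restate its shift. The intervals take cells as independent, though sister blastomeres cannot be recognised, and allow for neither the pick nor the embryos. The difference between the groups was not tested. The ranges of single cells overlapped widely. Without the cells that had a departing autosome, among them the siCont cell at -61.7 points, the mean shift was 5.23 points, and over all choices of cells it lay between 5.23 and 7.70 points. At the other stages chromosome 13 had mean shifts of 1.99 and 2.31 points.

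The other autosomes lay nearer to 0. Chromosomes 14 and 10 followed with mean shifts of 3.29 and 2.71 points, and lay between 1.81 and 5.02 and between 1.72 and 4.13 points under the choices of cells tried. Chromosome 9 was lowest at -4.004 points, then chromosome 4 at -3.86 and chromosome 8 at -2.89 points. Other choices brought chromosome 4 to -2.003 and chromosome 8 to -1.49 points. The SD of mean shifts over the 19 autosomes was 2.58 points, against 3.17 points at the 8-cell stage and 2.10 points at the morula stage. In single siCont cells chromosome 9 was ahead of the rest in 39 of 49 cells (79.6%), and in siRif1 in 33 of 51 (64.7%). Chromosome 4 was ahead in 23 of 49 and 17 of 51 cells. Chromosome 14 was ahead in 23 cells of each group.

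**Figure D3:**
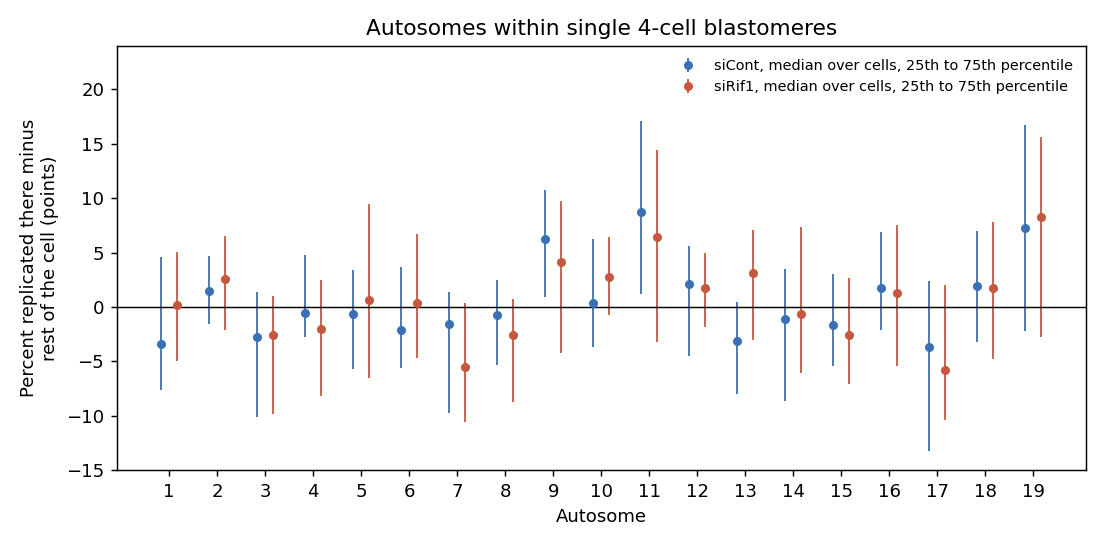
Percent of each autosome replicated minus the percent of the rest of the same cell (vertical axis, percentage points) for the 19 autosomes (horizontal axis); points are medians over 4-cell blastomeres and bars run from the 25th to the 75th percentile. Chromosome 13 has medians of -3.16 points for siCont and 3.13 points for siRif1, and the bars of the groups overlap on every autosome.

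Gene-dense bins were later in siRif1, and bins of middling gene density were earlier. Gene density was counted as protein-coding genes with their midpoint within 21 bins around each bin, in 5 equal classes. From the poorest to the densest class the mean shifts were 0.449, 1.25, 1.59, 0.367 and -3.65 points. The densest class had shares of 54.02 and 54.27% before centring, while the middle class went from 47.2 to 52.7%. Gene-dense regions are mostly early regions, so the classes were also compared within the earliest timing class. There the shift was 3.86 points in the second density class, 3.35 in the third, 0.424 in the fourth and -4.21 in the densest. The densest minus the middle class was -7.57 points with an SD over autosomes of 4.02 (-5.52 points without the cells numbered 1 to 8), and it was below 0 on 17 of the 18 autosomes with at least 20 bins of both kinds. It was -3.37 points with cells weighted equally over S phase and -3.64 points with matched pairs of cells. Within the latest timing class the shifts from the poorest to the densest class were -0.602, -0.370, -0.916, -2.60 and -1.41 points.

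**Figure D4:**
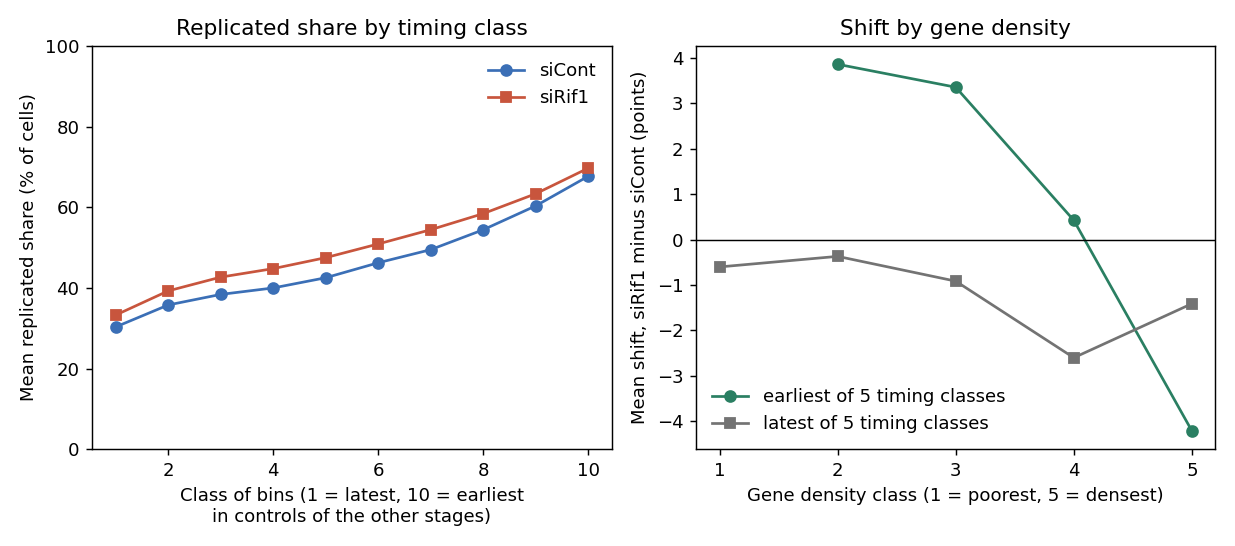
Left, mean replicated share (percent of cells) in 10 classes of bins ranked by control cells of the other stages, for siCont and siRif1. Right, mean shift (siRif1 minus siCont, percentage points) by gene density class within the earliest and the latest timing class, leaving out the poorest density class of the earliest timing class, which held 21 bins; the earliest line passes from 3.86 to -4.21 points.

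The 1-Mb windows with the lowest shifts held between 11 and 39 protein-coding genes each. Of 2328 windows with at least 10 used bins, 12 were later by 20 points or more (0.515%) and 8 were earlier (0.344%). Chromosome 9 from 108 to 109 Mb holds 39 protein-coding genes, among them Bsn, a scaffold gene of the presynaptic active zone, and Dag1, which encodes dystroglycan. It was replicated over most of its bins in 40 of 49 controls (81.6%, interval 67.98 to 91.2%). In siRif1 this held for 26 of 51 cells (50.98%, interval 36.6 to 65.2%), and the shift was -27.2 points. Matched pairs of cells gave -18.0 points. Its shifts were -18.7 points at the 8-cell stage and -13.7 points at the morula stage. In the reference order nearly all of it belongs to the earliest class (mean class 4.9).

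The next windows had less early controls. On chromosome 8, the window at 84 to 85 Mb contains Cacna1a, a voltage-gated calcium channel gene, and the transcription factor gene Nfix. It went from 31 of 49 siCont to 21 of 51 siRif1 cells (shift -24.3 points). Chromosome 8 from 120 to 121 Mb, with Gse1 among its 11 genes, went from 22 of 49 to 14 of 51 cells (shift -23.7 points). Chromosome 15 from 89 to 90 Mb, with Ppp6r2, a regulatory subunit gene of protein phosphatase 6, and Mov10l1, a piRNA pathway helicase gene, went from 31 of 49 to 20 of 51 cells (shift -23.4 points, -11.8 points with cells weighted over S phase). At the 8-cell stage this window had a shift of 0.933 points, while the windows of chromosome 8 had shifts of -16.0 and -25.2 points. At the morula stage it had -6.33 points and the windows of chromosome 8 had -5.93 and -11.4 points. The splicing regulator gene Rbfox2 and the myosin gene Myh9 share a window at 77 to 78 Mb of chromosome 15, which had a shift of -23.1 points over its 10 used bins. The last of these, at 155 to 156 Mb of chromosome 4, holds Prkcz, an atypical protein kinase C gene, and had -22.1 points, from 29 of 49 to 23 of 51 cells. The first window left out was at -21.5 points.

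The windows with the highest shifts held between 2 and 9 such genes each. Gene counts were not summarised over all windows, so neither this range nor that of the lowest windows has a background beside it. For scale, 19571 protein-coding genes lay in used bins, and 2328 windows had at least 10 used bins. Chromosome 5 from 127 to 128 Mb, with the membrane protein gene Tmem132c, was replicated over most of its bins in 16 of 49 controls (32.7%, interval 19.9 to 47.5%). In siRif1 this held for 31 of 51 cells (60.8%, interval 46.1 to 74.2%), and the shift was 24.4 points. The window at 113 to 114 Mb of chromosome 13, which holds the ARF-like GTPase gene Arl15, went from 20 of 49 to 37 of 51 cells (shift 24.1 points).

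Lower in this order were windows of chromosomes 14, 13 and 3. Chromosome 14 from 122 to 123 Mb, with Pcca, which encodes a subunit of propionyl-CoA carboxylase, went from 18 of 49 to 28 of 51 cells (shift 21.2 points). Chromosome 13 from 3 to 4 Mb, with Tasor2, went from 14 of 49 to 31 of 51 cells over 13 used bins (shift 20.8 points, 32.3 points under another choice of cells). Chromosome 3 from 99 to 100 Mb, with the T-box gene Tbx15 and Wars2, went from 14 of 49 to 26 of 51 cells (shift 20.7 points). The first window left out was at 20.5 points. At the 8-cell stage these windows had shifts of 0.383, 3.04 and 4.17 points, and at the morula stage -14.3, -28.6 and -7.02 points.

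Some windows were early in most cells or late in most cells of both groups. Chromosome 4 from 116 to 117 Mb, with the kinase gene Mast2, was replicated over most of its bins in 40 of 49 siCont and 42 of 51 siRif1 cells, with a shift of -0.262 points. The window at 38 to 39 Mb of chromosome 6, which holds the kinase gene Hipk2, gave the same counts and a shift of -5.03 points. The proline-rich protein genes Prp2 and Prb1 lie in a late window, at 132 to 133 Mb of chromosome 6, that was replicated in 4 of 49 controls and 3 of 51 siRif1 cells, with a shift of -4.79 points. On chromosome 12 from 114 to 115 Mb and chromosome 6 from 68 to 69 Mb, where no protein-coding gene was placed, the counts were 5 and 3 and 2 and 6 cells.

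Promoters from these windows are shown as examples of the sequence at early, late and shifted regions. The promoter of the longest gene that has one in the RefSeq table (GRCm38.p6) is shown for the early window with the smallest shift, for the latest window, and for the windows with the lowest and the highest shift. Each runs 5′ to 3′ on the strand of the gene, from 250 bases before its start to 50 bases after it, and CpG dinucleotides are in capitals.
Mast2, chr4:116464132-116464431, minus strand: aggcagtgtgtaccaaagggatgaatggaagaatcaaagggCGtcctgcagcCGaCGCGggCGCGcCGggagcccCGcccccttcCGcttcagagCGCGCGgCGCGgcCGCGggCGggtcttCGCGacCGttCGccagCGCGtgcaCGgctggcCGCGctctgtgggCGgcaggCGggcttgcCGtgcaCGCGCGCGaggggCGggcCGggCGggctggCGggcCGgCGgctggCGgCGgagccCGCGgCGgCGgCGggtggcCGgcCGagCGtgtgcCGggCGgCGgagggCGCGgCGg
Prp2, chr6:132595661-132595960, plus strand: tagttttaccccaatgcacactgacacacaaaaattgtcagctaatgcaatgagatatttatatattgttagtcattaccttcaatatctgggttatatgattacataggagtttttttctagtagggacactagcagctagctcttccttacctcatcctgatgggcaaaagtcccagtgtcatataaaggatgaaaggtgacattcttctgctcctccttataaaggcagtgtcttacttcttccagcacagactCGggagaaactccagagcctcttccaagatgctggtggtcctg
Bsn, chr9:108190334-108190633, minus strand: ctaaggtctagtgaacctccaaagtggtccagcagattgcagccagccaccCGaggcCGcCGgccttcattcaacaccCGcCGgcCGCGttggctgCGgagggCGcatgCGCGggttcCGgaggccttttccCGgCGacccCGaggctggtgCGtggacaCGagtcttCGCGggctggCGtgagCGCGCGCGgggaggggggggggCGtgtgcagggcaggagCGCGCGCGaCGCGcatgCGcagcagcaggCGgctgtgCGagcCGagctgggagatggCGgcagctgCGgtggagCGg
Tmem132c, chr5:127241576-127241875, plus strand: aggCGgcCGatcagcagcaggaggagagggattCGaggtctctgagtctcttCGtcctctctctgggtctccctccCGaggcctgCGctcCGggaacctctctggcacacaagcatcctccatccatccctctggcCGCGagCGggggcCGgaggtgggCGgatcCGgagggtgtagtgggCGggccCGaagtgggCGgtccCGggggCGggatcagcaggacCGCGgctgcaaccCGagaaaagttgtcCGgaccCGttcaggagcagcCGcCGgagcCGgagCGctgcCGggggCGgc

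The Mast2 promoter has 55 CpG and 80% G and C, and the Prp2 promoter 1 CpG and 41.3% G and C. Early windows also held promoters low in CpG, such as those of Tbxas1 (44.3% G and C) and Zfyve9 (39.7%) with 4 CpG each. The promoters of the windows that moved most in opposite directions were both rich in CpG, with 38 in Bsn (72.3% G and C) and 29 in Tmem132c (70.3%). Over 15607 genes with a promoter, those in the lowest of 5 equal classes of promoter G and C content had a mean of 2.91 CpG and a mean share of 38.7% in siCont and 41.98% in siRif1. In the second class the shares were 52.98 and 55.1%, and in the highest class, with a mean of 33.6 CpG, 56.5 and 57.8%. Mean shifts from the lowest to the highest class were -0.570, -1.82, -3.08, -3.23 and -2.56 points. Rif1 is known to bind G-quadruplex DNA, so a motif of that kind was searched as 4 runs of GGG with 1 to 7 bases between them on either strand. It was found in 25.4% of these genes and in 18.5% of all 32851 promoters of the table. Genes with it had a mean shift of -2.74 points and genes without it -2.08 points, with 22.9 and 13.9 CpG on average, so that the motif and CpG content move together and their parts were not separated. A match describes the letters and not a bound site.

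Protein-coding genes were placed by the bin of their midpoint. Of 19571 genes in used bins, 601 were later by 20 points or more (3.07%) and 185 were earlier (0.945%). A negative shift was found in 59.8% of genes, with a median of -2.30 points over all of them. The counts of the lists below are read against these values. Most members share bins or neighbouring bins with other genes, and members named as lowest or highest are the extremes of their list.

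The genes of the Rif1 axis itself were split. Rif1, on chromosome 2 from 52072815 to 52126769, was replicated in 27 of 49 controls (55.1%, interval 40.2 to 69.3%) and in 36 of 51 knockdown cells (70.6%), which gave a shift of 11.6 points. Cdc7, the kinase opposed by Rif1 and protein phosphatase 1, went from 29 of 49 to 38 of 51 cells (shift 11.4 points), and its activating subunit gene Dbf4 from 17 of 49 to 17 of 51 (shift -5.26 points). The protein phosphatase 1 catalytic subunit genes had shifts of -10.4 points for Ppp1ca, -8.42 points for Ppp1cc and 9.55 points for Ppp1cb. The values depended on the choice of cells: Rif1 came to 4.16 and Dbf4 to -9.89 points with weighted cells, Cdc7 to 5.78 points with matched pairs, Ppp1cc to -2.26 and Ppp1cb to 16.9 points. Ppp1ca reached 2.36 points. Of the 6 genes 3 were negative, with a median of 2.15 points, and none passed 20 points.

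Housekeeping and early-development genes leaned negative, as did genes in general. Of 39 genes of origin licensing and the replication fork, 29 had negative shifts (74.4%), with a median of -4.34 points. The lowest was Gins2, a helicase subunit gene in the window on chromosome 8 from 120 Mb, at -21.3 points (22 of 49 and 14 of 51 cells). The highest was Pcna, the sliding clamp gene, at 11.2 points (32 of 49 and 41 of 51 cells). Of 80 ribosomal protein genes 54 were negative (median -4.26 points), from Rps19 at -24.1 points (32 of 49 and 23 of 51 cells) to Rps23 at 21.9 points (21 of 49 and 35 of 51 cells). Of 25 pluripotency genes 18 were negative (median -4.34 points), with Klf2, a naive pluripotency factor gene, at -20.3 points and Nr5a2, a nuclear receptor gene, at 15.3 points. The medians of these lists turned to 1.25, 0.544 and 1.01 points with cells weighted equally over S phase. Without the siCont cells numbered 1 to 8 the licensing median was -7.95 points and the ribosomal median -6.58 points. Without these numbers in both groups the pluripotency median was -0.411 points.

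The trophectoderm, imprinted and Hox lists had negative medians, but so did genes in general, at -2.30 points. Against that value the trophectoderm median was higher, the imprinted median slightly lower and the Hox median lower. A negative median alone therefore sets none of these lists apart. Of 20 trophectoderm genes 11 were negative (median -1.11 points), with the keratin gene Krt18 at -19.7 points and the transcription factor gene Gata3 at 11.6 points. Other choices gave medians between -5.99 and 1.22 points. Of 34 imprinted genes 21 were negative (median -2.91 points), with Snrpn, of the Prader-Willi region, at -15.5 points and Zrsr1 at 17.0 points. The 39 Hox genes, which pattern the body axis, lie in 13 bins of 4 clusters. Of them 30 were negative (median -4.34 points), from Hoxb13 at -13.3 points to Hoxd9 at 5.95 points. The median was -7.40 points with cells between 20 and 80%, -8.93 points with matched pairs and -1.34 points without the siCont cells numbered 1 to 8. Under other choices Hoxb13 reached -25.1 and Hoxd9 -1.69 points. Of 32 genes of the 2-cell stage and genome activation only 13 were measured, with a median of 1.47 points (8.19 points with cells weighted over S phase). Nelfa was lowest at -10.4 points (32 of 49 and 30 of 51 cells, -0.482 points under another choice) and Arg2 highest at 13.2 points (31 of 49 and 41 of 51 cells). Most of the list is missing, so it is given without reading a direction.

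Clustered gene families covered both directions. The 74 histone genes lie in 23 bins, and 65 of them had positive shifts, with a median of 7.05 points. Of them 53 lie in 11 bins of the chromosome 13 clusters, all positive. The 10 histone genes on chromosome 3, in 2 bins, were also all positive (median 3.43 points). Centred within each autosome the median of the list was 1.21 points, and the part of chromosome 13 in it was not tested. Without the cells numbered 1 to 8 the median of the list was 14.1 points. H4c18, of the chromosome 13 clusters, went from 14 of 49 to 30 of 51 cells (shift 26.4 points). H3f3b, a replication-independent histone gene on chromosome 11, went from 31 of 49 to 25 of 50 (shift -17.2 points). The 28 genes of the major histocompatibility complex lie in 21 bins of chromosome 17 and had a median of -10.7 points, with 18 negative, between H2-Ke6 at -19.0 points and H2-M2 at 13.9 points. The 57 clustered protocadherin genes, which give neurons their surface identity, lie in 11 bins of chromosome 18. Of them 35 were positive (median 6.15 points, 2.41 to 10.4 points under other choices), from Pcdhb1 at -9.78 points to Pcdhgb7 at 11.4 points. Matched pairs gave -1.09 points for Pcdhb1.

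The large families had medians near 0, with medians of both signs on single chromosomes. Olfactory receptor genes had -6.51 points on chromosome 11 (73 of 83 negative) and 11.7 points on chromosome 17 (45 of 50 positive). Zinc finger genes had -9.90 points on chromosome 7 (72 of 93 negative) and 6.99 points on chromosome 13 (33 of 39 positive). Of 1081 olfactory receptor genes, which are mostly late, 606 were negative, with a median of -0.855 points and with 2.39 points when cells were weighted over S phase. Their extremes were Olfr373 at -24.0 points and Olfr559 at 24.5 points. Of 376 zinc finger genes 208 were negative (median -1.01 points, -2.89 to 0.354 under other choices), from Zscan20 at -23.5 points to Zfp51 at 25.6 points. Long neuronal and fragile-site genes, whose replication is often late and slow, had the highest share of positive members among lists not made of gene clusters. Of 42 such genes 32 were positive, with a median of 6.11 points that became 1.51 points with cells weighted over S phase and 2.90 points without the cells numbered 1 to 8. Rbfox1, a neuronal splicing regulator gene, went from 20 of 49 to 35 of 51 cells (shift 23.9 points, 13.96 points with weighted cells and 13.8 points over the gene body), and Nrg1, which encodes neuregulin, from 27 of 49 to 24 of 51 (shift -11.9 points).

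**Figure D5:**
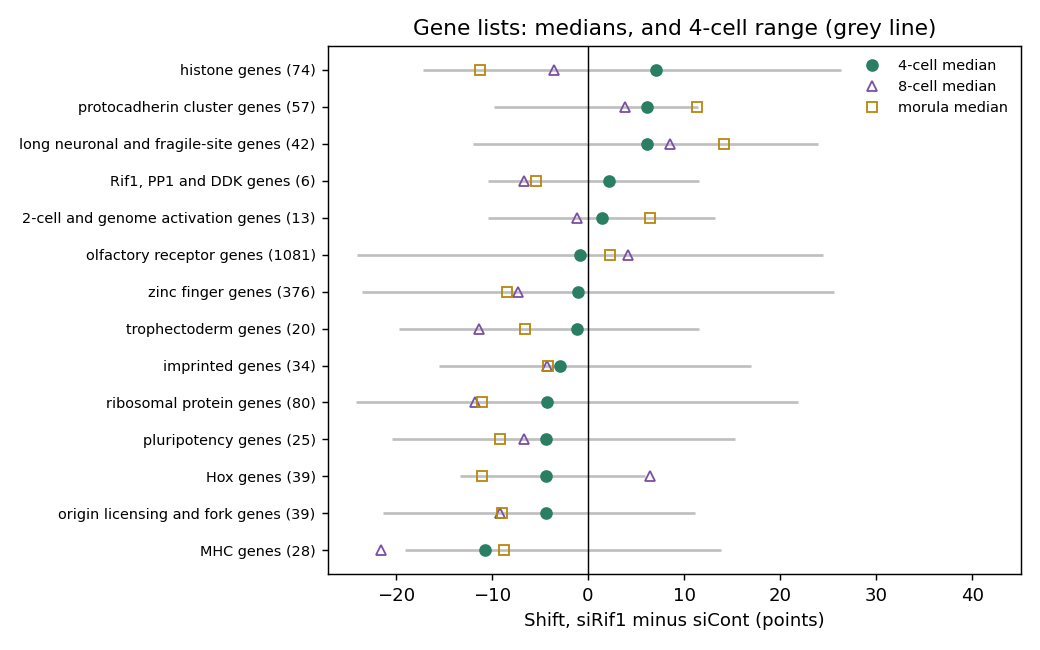
Shift (siRif1 minus siCont, percentage points, horizontal axis) of the 14 gene lists, with the number of measured genes in brackets; filled circles are 4-cell medians, grey lines run from the lowest to the highest member at the 4-cell stage, and open symbols are medians at the 8-cell and morula stages. All 4-cell medians lie between -10.7 and 7.05 points, and every line crosses 0.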

How the data were processed

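DNA replication states of single blastomeres were read from the tables the authors deposited, 1 per group, whose values per 50-kb bin and cell have no unit of abundance: they are binary scores of 0 or 1, or NA. The build was GRCm38 and the tools included Bowtie2 2.5.1 and R 4.2.3 with bedtools, Picard and SAMtools, per the submitters' processing notes. The calling of states from reads and the choice of cells are not given in the sources used here. The meaning of 1 is not stated in the tables.

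Shares, shifts, classes, pairs and counts were computed in Python 3.11.15 with numpy 2.4.6, pandas 2.3.3 and scipy 1.17.1. Window shifts were tested on simulated states drawn bin by bin, without the runs of the real states. State switches and order agreement were tested on small made-up examples, and the other steps were not tested. Bins needed at least 10 measured cells in both groups. Genes were placed by midpoint from the RefSeq table of GRCm38.p6. Each group is 1 sample, so no p-value or standard error is given. SDs over autosomes describe spread within these cells. The comparison, the lists and the rules were chosen with earlier results of these data known. Named windows were the 6 lowest and 6 highest of 1 Mb with at least 10 used bins and at least 5 Mb apart, of which 1 is not reported here. Named genes were the lowest and highest member of each list with at least 8 measured members, and all genes of the Rif1 list. Windows early or late in both groups, S phase brackets, leaving out cells numbered 1 to 8, gene density differences, chromosome ends and promoter classes were added after the data were seen. Alternatives were cells between 20 and 80% replicated, cells weighted over 4 brackets of S phase, 34 matched pairs, at least 20 cells per bin, no centring, ranks, thresholds, and gene bodies.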

Additional observations from a re-analysis of the deposited data

Results flagged for a closer look

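Among gene lists with a 4-cell median at least 5 points from 0, and among the windows described with shifts of at least 2 points at both other stages, 2 had a 4-cell shift of opposite sign to both other stages, and the difference between stages was not tested. The median of the histone genes was 7.05 points at the 4-cell stage, -3.50 points at the 8-cell stage and -11.2 points at the morula stage. On chromosome 13 the window at 113 to 114 Mb had 24.1 points at the 4-cell stage, -8.07 points at the 8-cell stage and -7.38 points at the morula stage. The 2 items are not separate, since 53 of the 74 histone genes also lie on chromosome 13. That autosome had the highest mean shift at the 4-cell stage, 6.78 points. Centred within each autosome the 4-cell histone median was 1.21 points, below the 5 points asked for here.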

How the results depend on the processing

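Without the siCont cells numbered 1 to 8, the latest minus the earliest class had a shift of 7.17 points, the SD of siCont shares was 15.96 points and the share of bins later by 20 points or more 2.38%; without these numbers in both groups the SD of siRif1 shares was 15.3 points. With cells weighted equally over S phase, the latest minus the earliest class had a shift of -2.61 points, the gene-densest minus the middle density class within the earliest class was -3.37 points, and the medians of the licensing, ribosomal protein and pluripotency lists turned to 1.25, 0.544 and 1.01 points; the cause was not tested. The share of bins later by 20 points or more was 2.32% with cells between 20 and 80% replicated, 0.791% with weighted cells, 3.09% with matched pairs, 0.376% without centring, 13.9% on ranks, which have a wider scale, and 0.0476% at 30 points. The share earlier by as much was 2.46% with cells between 20 and 80%, 2.86% with matched pairs, 3.81% without centring, 13.997% on ranks and 0.0195% at 30 points. The SD of siCont shares was 15.3 points with cells between 20 and 80% and 14.9 points with matched pairs, above the 14.7 and 14.2 points of siRif1, so that the order of the groups turned. The profile correlation was 0.752 with matched pairs. At 30 points, 15 siCont and 13 siRif1 pairs of cell and autosome departed, and at 50 points 0 siRif1 pairs did. All 55 alternative values of the named windows kept their sign, and of 192 values of named genes those of Ppp1ca and Hoxd9 turned. These windows and most of these genes were picked as extremes, and the alternatives draw on the same cells. A kept sign was therefore likely from the start and lends the shifts no weight. No paired analysis was possible because the cell numbers only name cells and each group is 1 sample. What read depth limits is unknown here.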

Other observations

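The ends of the autosomes gave small shifts of opposite sign. The first 3 Mb of used bins had a mean shift of 2.06 points (SD over autosomes 6.24, above 0 on 12 of 19) and shares of 45.7% in siCont and 51.7% in siRif1. The last 3 Mb had a mean shift of -0.347 points (SD 5.90, above 0 on 8 of 19) and shares of 37.1 and 40.6%. Both were smaller than their spread over autosomes.

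The least different pair of siCont cells differed at 6.37% of its shared bins and the least different pair of siRif1 cells at 9.32%. No column was thus identical to another of its group, and pairs across the groups were not compared.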
